A study of Mus musculus with 4 samples.

Results

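The proteasome genes described here are those whose array probe sets carry a single gene symbol of the form Psma, Psmb, Psmc, Psmd, Psme, Psmf or Psmg followed by a number. Psmb8 and Psmb9 were left out by this rule, which was set by name. The rule used no measured value, though earlier results of these data were known when members were chosen. The rule gave 45 genes on 48 probe sets, of 22180 named genes on the array. They were 7 alpha-ring and 9 beta-ring subunits of the core, 6 ATPases and 11 other subunits of the regulatory particle, 4 activators, 1 inhibitor, 4 core assembly factors and 3 regulatory particle assembly factors. Psma4, the remaining alpha-ring subunit, had only probe sets shared with another gene symbol and is not a member.

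The cells were primary hepatocytes of 2-month-old male mice, kept for 16 h without serum. The 4 groups were Chrebp-KO cells with 25 mM fructose, Chrebp-KO cells without it (control), wild-type (WT) cells with 25 mM fructose and WT control cells, with 1 array each. ChREBP, encoded by Mlxipl, is a transcription factor of hepatocytes that switches on sugar-using and fat-making genes when sugar is plentiful. The deleted part of Mlxipl, the number of mice and any pooling of cells are left unnamed by the labels, and their extraction text speaks of liver RNA although every sample is named as hepatocytes. Since every group is a single array, no replicate error can be had, values carry no p, and genes were counted by the size of their difference alone.

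The proteasome is the barrel-shaped protease that degrades ubiquitin-tagged proteins. Its core is built of alpha rings, which gate the entrance, and beta rings, which hold the cutting sites. A regulatory particle with a ring of ATPases unfolds substrates and feeds them into the core, other activators can take its place, and dedicated assembly factors help to build each part and leave the finished particle. Hepatocytes carry much protein turnover, and Nfe2l1 (also called NRF1), a factor held at the endoplasmic reticulum, is known to raise proteasome genes when proteasomes are inhibited.

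Values are log2 levels, and a difference of 0.585 on this scale is 1.5-fold. A level above 4.764, the 95th percentile of 1105 olfactory receptor genes, counted as above background. Of the 45 members, 41 were above background on all 4 arrays, Psmg4 was near the limit and above it on the control arrays only, and Psma5, Psma8 and Psmb11 were below it on every array. Psma8 is known as a testis form of an alpha subunit and Psmb11 as a thymus form of a beta subunit. Psma5 is used by every proteasome, and its average of 3.91 to 4.18 combined a probe set at 5.04 to 5.10, above background, with another at 2.77 to 3.28. Psma5 is therefore not described further, and 42 members entered the counts (41 for KO minus WT in fructose medium, where Psmg4 was below background on both arrays).

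Mlxipl had levels of 7.37 in KO fructose and 7.42 in KO control, against 8.43 in WT fructose and 8.08 in WT control, a limited check of the genotype since the probe set may lie outside the deleted part. All 11 measured hepatocyte markers were above background on every array. Of the other cells a liver preparation can hold, 11 of 14 macrophage and 9 of 13 endothelial markers were above background on all arrays, as were 2 of 7 cholangiocyte, 2 of 8 stellate and 1 of 6 lymphocyte markers. Those above it in the last 3 types were Sox9 (9.39 to 10.30), Cldn3 (10.07 to 10.97), Dcn (5.99 to 6.49), Col1a1 (4.84 to 4.96) and Nkg7 (5.26 to 5.32), while Krt19, Epcam, Lrat, Des, Cd3e and Cd8a were below background on every array.

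Promoters are shown for 4 members, the ones on which the differences below turn: Psmg1 and Psmd10, the only members at least 1.5-fold lower with fructose, Psmd9, the member with the largest positive difference in WT, and Psmb5, the core subunit with the lowest fructose difference in WT. Each line gives the 250 bases before the annotated start (RefSeq, GRCm38.p6), 5′ to 3′ on the gene's strand, with matches in capitals to any of 4 motifs searched on both strands. The motifs were TGACNNNGC (the core of the antioxidant response element, which Nfe2l1 with small Maf proteins binds), CCAAT (bound by NF-Y), CACGTG (an E box, the kind of element found in ChREBP target sites) and TTTCNNTTT (the core of the interferon-stimulated response element). The windows lie at chr16:95990961-95991210 (minus strand) for Psmg1, chrX:140956712-140956961 (minus) for Psmd10, chr5:123227940-123228189 (plus) for Psmd9 and chr14:54617996-54618245 (minus) for Psmb5.
Psmg1: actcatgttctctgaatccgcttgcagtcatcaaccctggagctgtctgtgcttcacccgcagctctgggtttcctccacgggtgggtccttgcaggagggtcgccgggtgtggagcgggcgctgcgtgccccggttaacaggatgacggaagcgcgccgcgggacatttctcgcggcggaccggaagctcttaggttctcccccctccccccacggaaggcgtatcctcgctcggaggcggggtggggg
Psmd10: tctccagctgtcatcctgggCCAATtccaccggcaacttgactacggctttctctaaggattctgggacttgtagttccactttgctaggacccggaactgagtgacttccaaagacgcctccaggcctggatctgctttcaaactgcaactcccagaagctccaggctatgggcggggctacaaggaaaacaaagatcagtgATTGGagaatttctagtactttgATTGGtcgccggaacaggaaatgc
Psmd9: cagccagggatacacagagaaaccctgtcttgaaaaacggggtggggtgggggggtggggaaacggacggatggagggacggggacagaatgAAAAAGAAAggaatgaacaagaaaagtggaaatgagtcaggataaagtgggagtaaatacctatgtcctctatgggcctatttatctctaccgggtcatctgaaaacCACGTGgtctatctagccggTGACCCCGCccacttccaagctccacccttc
Psmb5: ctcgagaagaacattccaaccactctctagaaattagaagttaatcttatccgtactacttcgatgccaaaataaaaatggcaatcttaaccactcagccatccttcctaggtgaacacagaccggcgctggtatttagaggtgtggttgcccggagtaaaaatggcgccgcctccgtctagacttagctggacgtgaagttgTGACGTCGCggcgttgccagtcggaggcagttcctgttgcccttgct

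The Psmg1 window held no match to any of the motifs. The Psmd10 window held 3 CCAAT matches, with leftmost bases at -230, -47 and -24 from the gene's start. The Psmd9 window held an antioxidant element at -31, an E box at -51 and an interferon element at -158, and the Psmb5 window an antioxidant element at -47. No matches overlapped within these windows. Promoters were found for 37 of the 45 members. The antioxidant motif was in 5 of them (13.5%, against 12% of 17491 protein-coding genes), in Psmb5, Psmb6, Psmc6, Psmd9 and Psmd12. CCAAT was in 13 (35.1%, against 39.5%), the E box in 3, Psmb10, Psmd9 and Psme3 (8.11%, against 7.61%), and the interferon motif in 4, Psmb3, Psmd4, Psmd9 and Psmd11 (10.8%, against 10.2%). These shares in members lay near those of all promoters.

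Fructose left most proteasome genes close to their control level in both genotypes. Psmg1 and Psmd10, both assembly factors, were the only members at least 1.5-fold different, and both were lower in KO and in WT. The median difference of the members was -0.012 in KO and -0.0415 in WT, beside -0.0041 and -0.026 over all detected genes. No member was at least 1.5-fold higher in either genotype.

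In KO, 2 of 42 members were at least 1.5-fold lower and 0 higher, where 5.75% of 10752 detected genes were lower and 6.11% higher. In WT the members' counts were also 2 lower and 0 higher, where 10.8% of 10814 detected genes were lower and 9.46% higher. With a log2 difference of 0.322 as a lower limit, 5 members were lower and 1 higher in KO (17.2% and 17.1% of all genes), and 7 lower and 1 higher in WT (23.7% and 20.4%). Psmg1, Psmd10, Psmb5 and Psmb10 were past this lower limit in both genotypes, with Psmd13 in KO and with Psmd1, Psmd6 and Psme1 in WT. Psmg2 was within it as an average of its probe sets (-0.20 in KO) but past it on the bright one (-0.38 in KO). In KO 20 of 42 members lay above 0 (49.4% of all genes) and in WT 18 of 42 (47.5%). The share of members lower at 1.5-fold was near the background in KO and below it in WT.

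The differences of the members were packed more closely than those of all detected genes. The middle 50% of members spanned 0.258 in KO, against 0.434 for all detected genes, and 0.185 in WT, against 0.554. Within 0.322 of no difference lay 85.7% of members and 65.7% of all genes in KO, and 81.0% and 55.9% in WT. The comparison was not matched for level, and it was not tested.

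**Figure D1:**
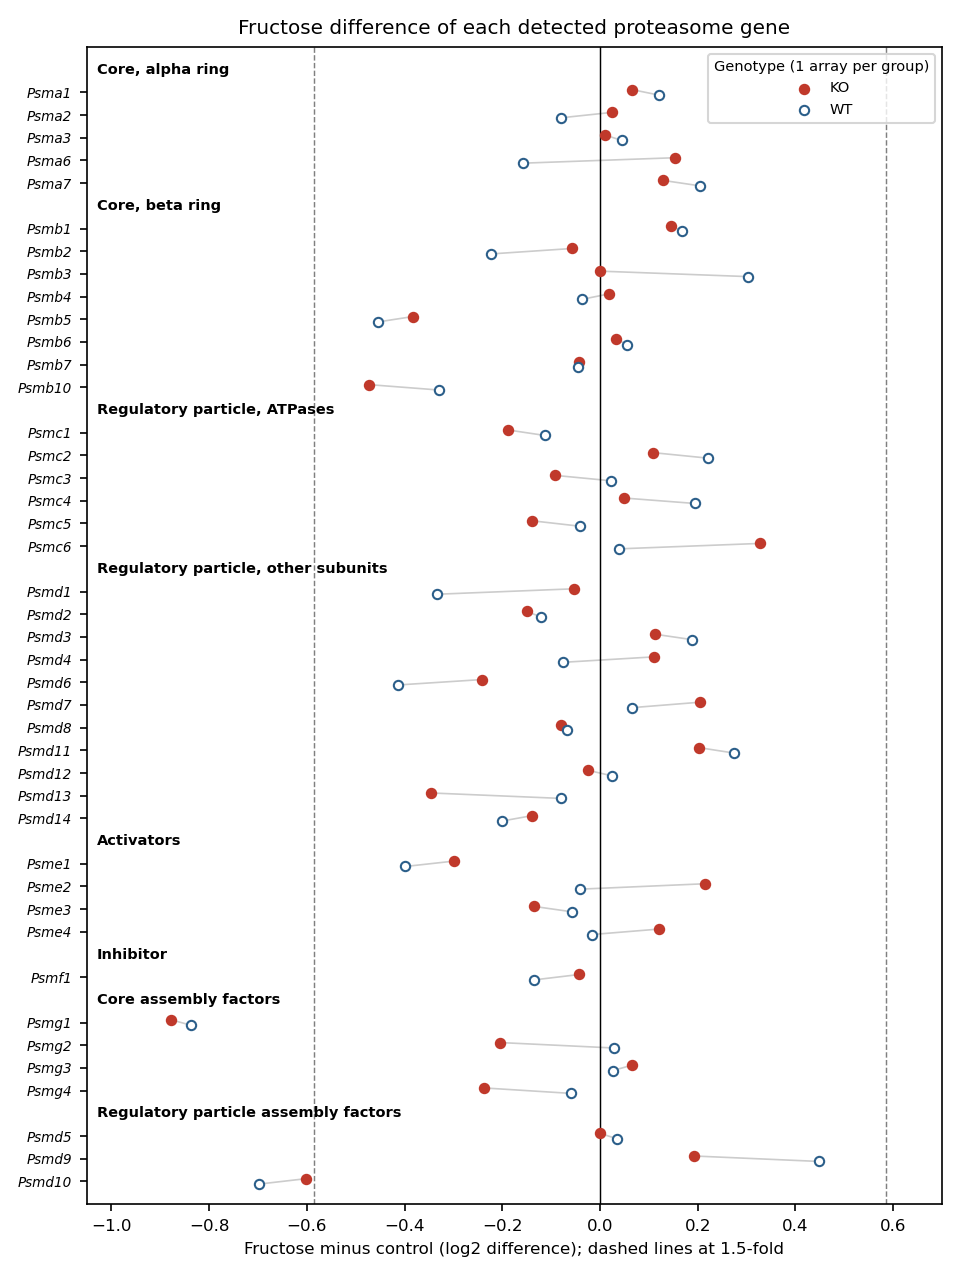
Difference between fructose and control (x axis, log2) for each of the 42 proteasome genes above background on at least 1 array, by role, with 1 point for KO (filled) and 1 for WT (open), each from 1 array per group. Psmg1 and Psmd10 lie beyond the dashed 1.5-fold line on the low side in both genotypes, and the other 40 genes lie between the lines.

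Assembly factors held the largest differences. Psmg1, which pairs with Psmg2 to guide formation of the alpha ring, had a level of 6.21 in KO fructose and 7.09 in KO control, and of 6.15 in WT fructose and 6.99 in WT control. Both fructose arrays were lower than both control arrays. The difference was 1.84-fold in KO (-0.88) and 1.79-fold in WT (-0.84), and it differed between genotypes by -0.04.

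Psmd10, known as gankyrin, a chaperone of the ATPase ring that is also raised in liver cancers, had 8.04 in KO fructose and 8.64 in KO control, and 8.06 in WT fructose and 8.76 in WT control. It was 1.52-fold lower with fructose in KO (-0.60), just past the 1.5-fold limit, and 1.62-fold lower in WT (-0.70). Again no fructose array reached a control array. Psmd9 and Psmd5, the other members of this class, did not follow it. Psmd9 had 6.73 in KO fructose and 6.53 in KO control, and 6.94 in WT fructose and 6.49 in WT control, so that its difference was 0.19 in KO and 0.45 (1.36-fold) in WT. Psmd5 had 9.48 on both KO arrays, and 9.35 in WT fructose and 9.31 in WT control.

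Psmg2, the partner of Psmg1, had 5.08 in KO fructose and 5.28 in KO control, and 5.13 in WT fructose and 5.10 in WT control. These levels average a bright probe set, with a difference of -0.38 in KO and -0.06 in WT, and a second one below background (2.92 to 3.23). Psmg3 and Psmg4, the other pair of core chaperones, differed by 0.06 and -0.24 in KO and by 0.03 and -0.06 in WT. Over the 7 assembly factors the median was -0.20 in KO and 0.03 in WT, with 2 of 7 at least 1.5-fold lower in each, where 5.75% of all genes were lower in KO and 10.8% in WT. The KO median is the averaged value of Psmg2. With its bright probe set alone the middle gene would be Psmg4, at -0.24 in KO and -0.06 in WT. The sign of the WT median thus depends on how Psmg2 is summarised.

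**Figure D2:**
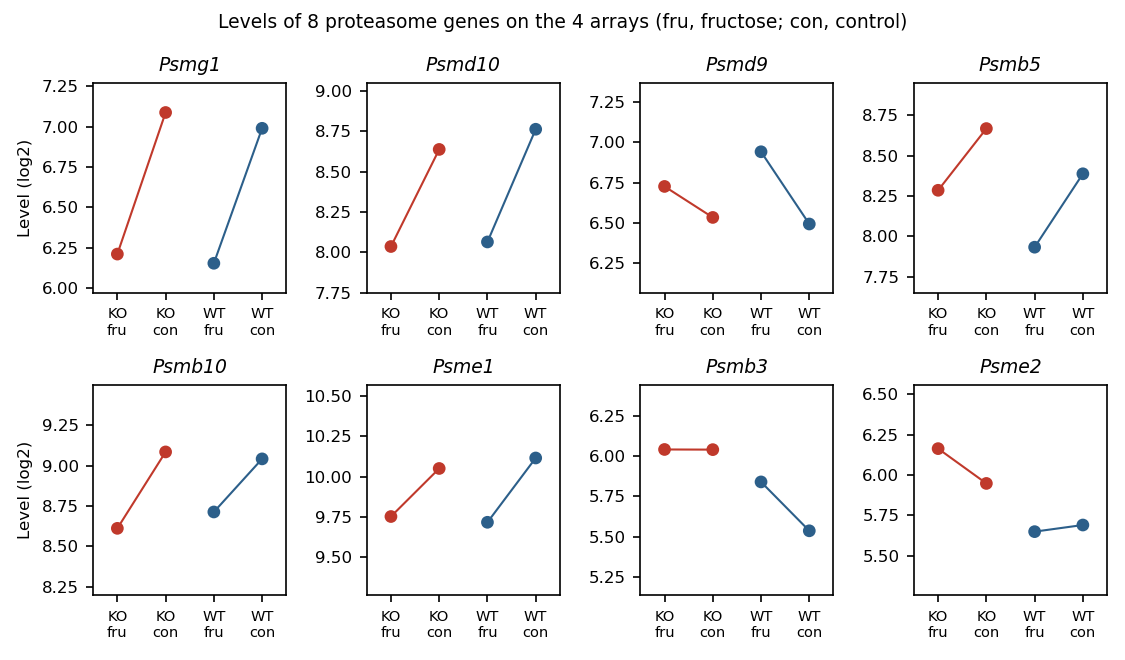
Log2 level of 8 proteasome genes (y axis, of the same length in each panel) on the KO fructose, KO control, WT fructose and WT control arrays, 1 array each, with a line joining the arrays of a genotype. Psmg1, Psmd10, Psmb5, Psmb10 and Psme1 are lower on the fructose array of both genotypes, Psmd9 is higher, and Psmb3 and Psme2 differ mainly between the genotypes.

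In the core, the alpha-ring genes differed little. The 5 detected alpha-ring genes ranged from 0.01 to 0.15 in KO and from -0.16 to 0.20 in WT, with medians of 0.07 and 0.04. Psma7 had the highest fructose difference of the ring in WT, 0.20, with levels of 9.68 in KO fructose and 9.55 in KO control, and 9.67 in WT fructose and 9.46 in WT control. Psma6 had opposite differences, with 8.23 in KO fructose and 8.07 in KO control, and 7.996 in WT fructose and 8.15 in WT control. It was 1.11-fold higher with fructose in KO and 1.12-fold lower in WT.

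The beta ring had a wider range, from -0.47 to 0.15 in KO and from -0.46 to 0.30 in WT, because of a few genes. Psmb5, which carries the chymotrypsin-like site, had 8.29 in KO fructose and 8.67 in KO control, and 7.93 in WT fructose and 8.39 in WT control. It was lower with fructose by a log2 difference of -0.38 in KO and -0.46 in WT (1.37-fold), and each fructose array lay below both control arrays, the KO fructose array by the smaller margin. The other constitutive cutting subunits did not share this. Psmb6, of the caspase-like site, had 9.14 in KO fructose and 9.11 in KO control, and 9.33 in WT fructose and 9.27 in WT control, so that it was slightly lower in KO in both media. Psmb7, of the trypsin-like site, had 9.80 in KO fructose and 9.84 in KO control, and 9.74 in WT fructose and 9.79 in WT control. Their fructose differences were 0.03 and -0.04 in KO and 0.06 and -0.05 in WT.

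Psmb10, the interferon-inducible subunit that replaces Psmb7, had 8.61 in KO fructose and 9.09 in KO control, and 8.71 in WT fructose and 9.04 in WT control. It was 1.39-fold lower in KO and 1.26-fold lower in WT. Psmb8 and Psmb9, the inducible counterparts of Psmb5 and Psmb6, differed by -0.34 and -0.55 in KO and by -0.47 and -0.66 in WT. The ratio of inducible to constitutive subunit within an array therefore differed by -0.59 in KO and -0.72 in WT for Psmb9 over Psmb6, by -0.43 and -0.28 for Psmb10 over Psmb7, and by 0.04 and -0.01 for Psmb8 over Psmb5. Psmb3, a non-catalytic beta subunit, had 6.04 on both KO arrays, and 5.84 in WT fructose and 5.54 in WT control. RefSeq lists pseudogenes of Psmb5, Psmb6 and Psmb7 as well as of Psma5, and probes that match these copies would make the values uncertain.

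The regulatory particle followed no common direction. Its 6 ATPases ranged from -0.19 (Psmc1) to 0.33 (Psmc6) in KO and from -0.11 (Psmc1) to 0.22 (Psmc2) in WT. Psmc6 was the only member higher in KO by more than 0.322, with 9.83 in KO fructose and 9.50 in KO control, and 9.72 in WT fructose and 9.68 in WT control. Psmc1 had 9.0 in KO fructose and 9.19 in KO control, and 8.98 in WT fructose and 9.10 in WT control. Psmc2 had 7.93 in KO fructose and 7.82 in KO control, and 7.82 in WT fructose and 7.60 in WT control. Its probe sets agreed on fructose but not on genotype, where KO minus WT in fructose medium was -0.09 on the brighter and 0.32 on the dimmer. Psmc3 had 7.38 in KO fructose and 7.48 in KO control, and 7.48 in WT fructose and 7.46 in WT control.

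The other 11 subunits of the regulatory particle had medians of -0.05 in KO and -0.07 in WT. Psmd6, a lid subunit, had 8.10 in KO fructose and 8.34 in KO control, and 8.06 in WT fructose and 8.48 in WT control, which was 1.18-fold lower in KO and 1.33-fold lower in WT. Psmd1, a scaffold of the base, had 9.31 in KO fructose and 9.37 in KO control, and 9.05 in WT fructose and 9.39 in WT control. It was the WT fructose array that stood low here. Psmd13, a lid subunit, differed by -0.35 in KO and -0.08 in WT, with the KO control array the highest at 7.67. Psmd11, a lid subunit, had the highest fructose difference of these subunits in WT, 0.27, with levels of 10.57 in KO fructose and 10.37 in KO control, and 10.54 in WT fructose and 10.27 in WT control. Psmd3 had 8.56 in KO fructose and 8.45 in KO control, and 8.76 in WT fructose and 8.57 in WT control. Psmd14, the deubiquitinase of the lid, differed by -0.14 in KO and -0.20 in WT, and Psmd4, a ubiquitin receptor, by 0.11 and -0.07.

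Among activators, Psme1 and Psme2 form a ring that interferon induces and that opens the core. Psme1 had 9.75 in KO fructose and 10.05 in KO control, and 9.72 in WT fructose and 10.12 in WT control, which was 1.23-fold lower in KO and 1.32-fold lower in WT. Psme2 did not follow its partner, with 6.16 in KO fructose and 5.95 in KO control, and 5.65 in WT fructose and 5.69 in WT control. Its value is uncertain, since RefSeq holds a separate copy, Psme2b, and a second probe set is shared with other genes. Psme3, the nuclear activator, differed by -0.13 in KO and -0.06 in WT. Psme4, an activator linked to histone turnover, had 8.92 in KO fructose and 8.80 in KO control, and 8.76 in WT fructose and 8.77 in WT control. Psmf1, an inhibitor of the core in vitro, had 8.0 in KO fructose and 8.04 in KO control, and 8.15 in WT fructose and 8.29 in WT control.

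The fructose differences of the members ran alike in KO and WT, which were measured on separate arrays. Across the 42 genes Pearson's r was 0.81 and Spearman's rho 0.71, and the sign was the same for 32 of 42 (76.2%). Without Psmd10 and Psmg1, r was 0.67 and rho 0.66 over 40 genes. Over 11050 detected genes r was 0.82, rho 0.77 and the share of equal signs 77.6%, so the members lay near the whole array. These are descriptions across genes, which share arrays and are not independent replicates.

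**Figure D3:**
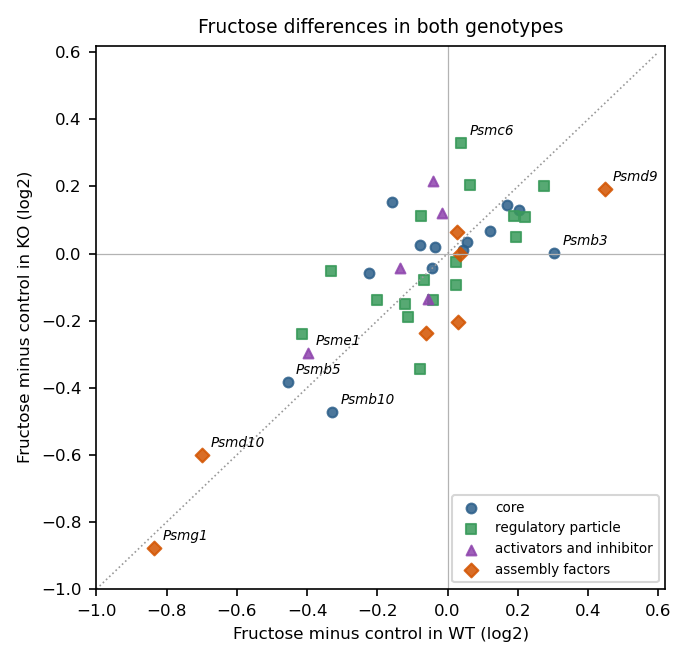
Fructose minus control in KO (y axis, log2) against the same difference in WT (x axis, log2) for the 42 detected proteasome genes, with 1 point per gene marked by role and a dotted line of equality. Psmg1 and Psmd10 lie near the line at the low end, apart from a cluster around 0, and r is 0.81 with them and 0.67 without them.

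KO and WT hepatocytes differed little in proteasome genes in either medium. In fructose medium 0 of 41 members were at least 1.5-fold higher or lower in KO, where 2.45% of 10688 detected genes were higher and 2.86% lower. In control medium it was 0 of 42 in each direction, where 0.476% of 10720 genes were higher and 1.1% lower. The median was 0.039 in fructose medium and 0.048 in control medium, beside 0.015 and -0.0077 over all detected genes. In fructose medium 30 of 41 members lay above 0 (52.5% of all genes), and in control medium 26 of 42 (48%). Most of these differences were small, as the middle 50% of members ran from -0.03 to 0.115 in fructose medium and from -0.06 to 0.13 in control medium.

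At the lower limit of 0.322, 2 members were higher and 0 lower in KO in fructose medium, where 10.3% of all genes were higher and 9.73% lower, and 1 was higher and 0 lower in control medium (3.64% and 5.69%). In fructose medium they were Psme2, with a difference of 0.51 (6.16 in KO fructose against 5.65 in WT fructose), and Psmb5, with 0.35 (8.29 against 7.93). Psmb5 was also higher in KO control, by 0.28 (8.67 against 8.39), and Psme2 by 0.26. In control medium the gene past that limit was Psmb3, with a difference of 0.50 (6.04 in KO control against 5.54 in WT control), and in fructose medium it differed by 0.20. Psmb6 was lower in KO in both media, by -0.19 with fructose and -0.17 without. Psmd9 differed by -0.21 in fructose medium and 0.04 in control medium.

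Macrophage and endothelial markers were mostly lower in KO, and immune cells are known to express the interferon-inducible subunits strongly. In fructose medium 10 of 12 detected macrophage markers were below 0 in KO, with a median of -0.51, and 8 of 9 endothelial markers, with a median of -0.35. In control medium it was 10 of 11 macrophage markers (-0.36) and 9 of 9 endothelial markers (-0.48). The log2 of the summed macrophage markers was 11.5 in KO fructose and 11.4 in KO control, against 11.3 in WT fructose and 11.5 in WT control, and that of the endothelial markers 9.59 and 9.67, against 9.99 and 10.2. Cd68 was the brightest macrophage marker, at 11.22 in KO fructose and 11.12 in KO control, against 10.79 in WT fructose and 11.04 in WT control. Unlike most of the others, it was higher in KO, by 0.44 in fructose medium and 0.08 in control medium. The macrophage sum was, like Cd68, higher in KO in fructose medium. In control medium the sum was slightly lower in KO, unlike Cd68. Psmb10 differed from WT by -0.10 in fructose medium and 0.04 in control medium, Psme1 by 0.04 and -0.07, and Psmb8 by 0.08 and -0.05. Psme2 was higher in KO by 0.51 and 0.26, whereas Psmb9 was lower in KO by -0.35 in fructose medium and -0.46 in control medium. Fewer cells of a type and less RNA per cell cannot be told apart in such samples, and the part of other cells in these values was not tested.

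The fructose effect itself differed little between genotypes. The difference of effects, KO minus WT, uses all 4 arrays, and it passed 0.322 for 0 of 42 members in either direction (12.2% of 11050 detected genes higher and 9.67% lower) and so at least 1.5-fold for 0 as well (2.86% and 2.6%). Its median was -0.026, beside 0.029 over all genes, with 18 of 42 members above 0 (55% of all genes). The extremes were Psma6, at 0.31, and Psmb3, at -0.30.

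**Figure D4:**
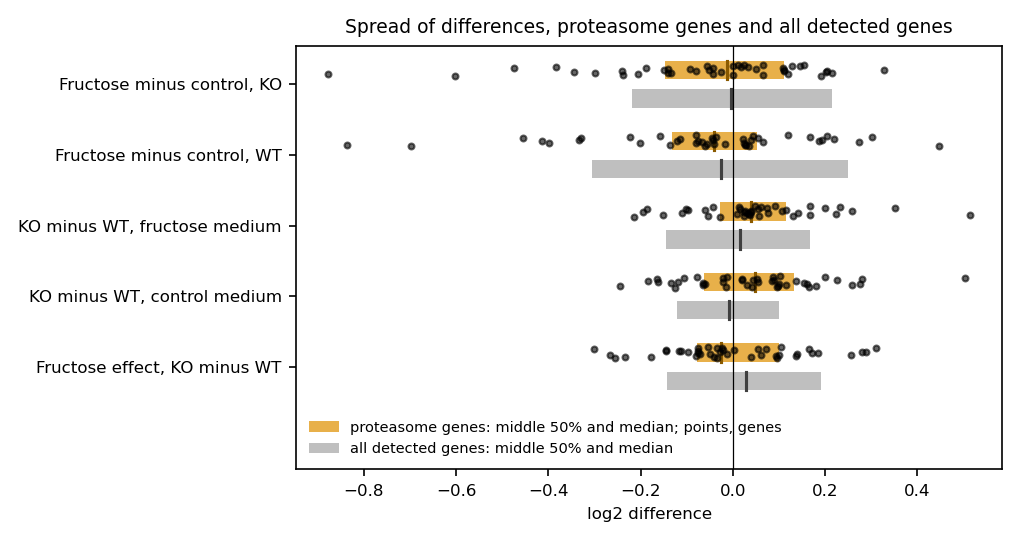
Log2 differences (x axis) of the detected proteasome genes (points, with a coloured box for the middle 50% and a line at the median) and of all detected genes (grey box and line) in 5 comparisons, from 1 array per group. The coloured box is narrower than the grey one in each comparison, for example 0.185 against 0.554 for fructose in WT.

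In each of 4 lists of genes around the proteasome the fructose median lay further from 0 than that of the members, a difference that was not tested. Of 11 measured cofactors, 0 in KO and 2 in WT were at least 1.5-fold higher, where 6.11% of all genes were higher in KO and 9.46% in WT, and 0 were lower (5.75% and 10.8%). At 0.322, 5 were higher in each genotype (17.1% of all genes in KO and 20.4% in WT) and 2, Pomp and Sem1, lower in WT (23.7%). The medians were 0.29 in KO and 0.28 in WT. Akirin2, which brings proteasomes into the nucleus, was 1.34-fold higher with fructose in KO (9.03 against 8.60) and 1.83-fold higher in WT (9.33 against 8.46). Zfand5, a zinc-finger activator of the proteasome, was 1.43-fold higher in KO (9.70 against 9.18) and 1.74-fold in WT (9.99 against 9.20). Zfand2a, a related stress-induced protein, was higher by 0.33 in KO and 0.56 in WT, and Txnl1, a thioredoxin bound to the regulatory particle, by 0.26 and 0.51. Pomp, the chaperone of the beta ring, differed by -0.04 in KO and -0.36 in WT, and it was lower in KO control than in WT control by -0.46.

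Nfe2l1 differed by -0.09 in KO and -0.10 in WT, while the genes of its small Maf partners were higher. Of 11 measured genes that control proteasome genes, 0 in KO and 4 in WT were at least 1.5-fold higher (6.11% and 9.46% of all genes) and 0 lower (5.75% and 10.8%). Their medians were 0.37 in KO and 0.17 in WT. The 4 were the small Maf genes Mafg (1.71-fold), Mafk (1.70-fold) and Maff (1.66-fold) and the NF-Y subunit gene Nfya (1.54-fold). In KO the same genes were 1.34-fold, 1.45-fold, 1.40-fold and 1.40-fold higher. Nfe2l2, the related antioxidant factor, differed by -0.02 in KO and 0.08 in WT.

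Of the measured genes of ubiquitin supply and delivery, 9 of 11 in KO and 11 of 11 in WT were above 0 with fructose, where 49.4% of all genes were in KO and 47.5% in WT. Their medians were 0.17 in KO and 0.28 in WT. At least 1.5-fold higher were 0 in KO and 1 in WT (6.11% and 9.46% of all genes), Faf2, which draws the Vcp segregase to the endoplasmic reticulum (1.19-fold in KO, 1.58-fold in WT). Ubxn4, of the same function, was higher by 0.38 in KO and 0.53 in WT, and Sqstm1, a carrier of ubiquitinated cargo to autophagy, by 0.24 and 0.42. Vcp differed by -0.07 in KO and 0.35 in WT.

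Antigen-processing genes share interferon control with Psmb10, Psme1 and Psme2. Of these members, Psmb10 and Psme1 were lower with fructose in both genotypes, whereas Psme2 differed by 0.22 in KO and -0.04 in WT. The antigen-processing genes had medians below 0 with fructose, of -0.26 in KO and -0.32 in WT. Above 0 were 1 of 10 in KO and 2 of 10 in WT, where 49.4% and 47.5% of all genes were. At 0.322, 4 of 10 were lower in each genotype (17.2% of all genes in KO and 23.7% in WT). At 1.5-fold, 1 was lower in KO (Tap2, 1.54-fold, where 5.75% of all genes were lower) and 1 in WT (Psmb9, 1.58-fold, where 10.8% were), and Tapbpl was 1.69-fold higher in WT and 1.28-fold in KO. In the same comparison the macrophage markers had medians of 0.10 in KO and 0.21 in WT, and the endothelial markers of -0.03 and -0.11. The macrophage markers were split, with 8 of 11 above 0 in KO and 8 of 12 in WT. Among those below 0 were Cd5l (-0.78 in KO and -0.91 in WT) and C1qb (-0.44 and -0.68). The part of macrophages in the antigen-processing values was not tested.

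**Figure D5:**
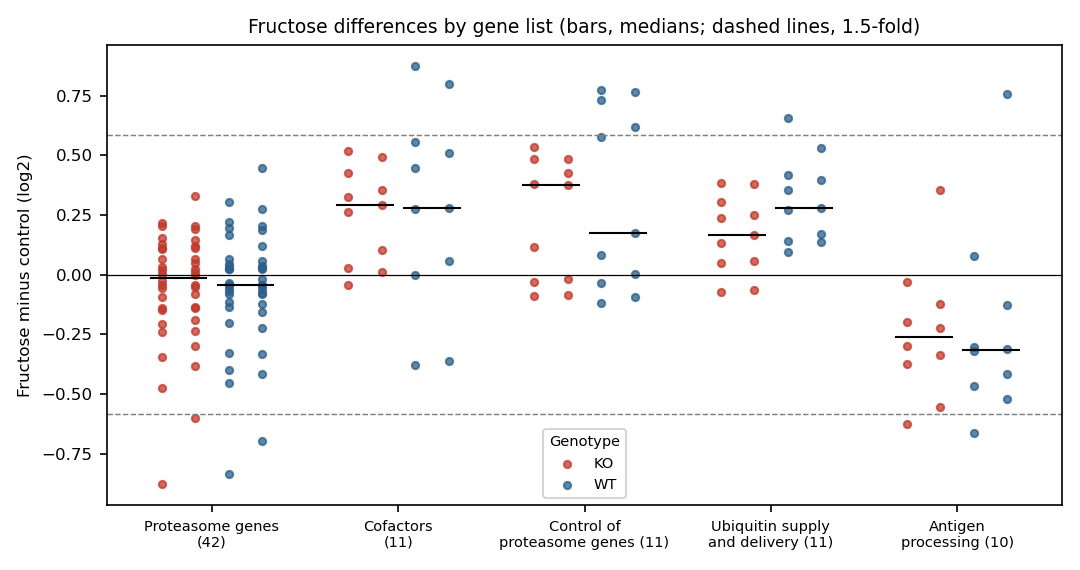
Fructose minus control (y axis, log2) for the detected genes of 5 lists (x axis, number of genes in brackets), with KO points to the left of WT points, 1 array per group, and a bar at each median. Proteasome genes centre near 0, with medians of -0.012 in KO and -0.0415 in WT, while cofactors, at 0.29 and 0.28, lie above and antigen-processing genes, at -0.26 and -0.32, below.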

How the data were processed

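Expression was measured on 1 one-colour whole-transcript array per group, from 400 ng of RNA per sample. The authors deposited log2 values for each probe set, obtained with RMA in R 3.4.0 per the submitters' processing notes. RMA equalises the arrays, so that a shift shared by all genes is lost. The authors' annotation version is not given in the sources used here.

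Of 41345 probe sets, 23521 had 1 gene symbol. 23328 of these were matched by Entrez number to RefSeq (GRCm38.p6), and probe sets of a gene were averaged in log2, giving 22180 genes. A gene was detected in a comparison when above background on at least 1 array compared. Differences were taken for 5 comparisons and counted at 1.5-fold, with no test, using Python 3.11.15, pandas 2.3.3 and statsmodels 0.14.6. The comparisons share arrays, apart from the pair of fructose effects and the pair of genotype effects. The counting code was run on data made from 1 array with exact folds added and no noise. That run checks the code only and cannot show how noise of single arrays affects the counts. Members, lists and thresholds were chosen with earlier results of these data known.

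Genes given on all arrays were the extremes of each class, the 6 largest differences, the cutting subunits and the Psme1 and Psme2 pair. From each of the 4 lists of related genes the 4 largest were named, plus Nfe2l1, Pomp, Psmb8 and Psmb9. Other genes were named after their values were seen. Listed genes without a value, among them Adrm1, Paaf1, Ddi2 and Uba1, were not analysed here. Having 4 arrays limits the precision.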

Additional observations from a re-analysis of the deposited data

How the results depend on the processing

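The medians of the members moved by less than 0.1 in all 5 comparisons when arrays were centred on their median, quantile-normalized again or loess-corrected (span 0.3), when the dim-gene filter was dropped or set 1 log2 unit higher, with the brightest probe set, with the mean, and without Psmb10, Psme1 and Psme2. The counts at 1.5-fold were the same as with the deposited values under each of these that applies to counts. The limit of 0.1 is larger than each median with the deposited values, so it does not fix their signs. For fructose in KO the median was -0.012 as deposited, 0.0013 with median centring and -0.044 with quantile normalization. Psmg1 and Psmd10 stayed at least 1.5-fold lower with fructose in both genotypes under the 3 rescalings. A lower limit of 0.322 (log2) raised the count to 6 members for fructose in KO, 8 for fructose in WT, 2 for KO minus WT in fructose medium and 1 in control medium. At 2-fold the count was 0 in both fructose comparisons. With the brightest probe set, Psmc2 had -0.09 for KO minus WT in fructose medium, where the average was 0.115, and Psmg2 had -0.38 for fructose in KO, where the average was -0.20. The counts at 0.322 were not rerun with the brightest probe set.

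Signs of members within 0.05 of 0 turned under some rescalings, and the number of members above 0 then ran from 17 to 21 for fructose in KO and from 16 to 19 in WT. Leaving out arrays was not run, and no paired analysis was possible because each group has 1 array. Psmg4 lay at the background limit, and Psmg2 (as an average, with its bright probe set at 6.95 to 7.33) and Psmg3 lay less than 1 log2 unit above it on each array. Psmb3 in WT control (5.54) and Psme2 in WT fructose and WT control (5.65 and 5.69) were also less than 1 unit above it. These levels enter their KO minus WT differences of 0.50 (Psmb3, control medium) and 0.51 (Psme2, fructose medium).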

Other observations

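Some probe sets carry a proteasome symbol together with another gene, and they entered no count above. The brighter of the probe sets shared by Psma4 and AY074887 had a level of 9.61 in KO fructose and 9.67 in KO control, and of 9.61 in WT fructose and 9.68 in WT control, so that it differed by -0.06 with fructose in KO and -0.08 in WT. The 5 detected alpha-ring members ranged from 0.01 to 0.15 in KO and from -0.16 to 0.20 in WT.

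A probe set shared by Psme2 with 9930111J21Rik1 and 9930111J21Rik2 had 5.08 in KO fructose and 5.26 in KO control, and 4.80 in WT fructose and 5.74 in WT control. Its fructose difference was -0.17 in KO and -0.94 in WT, unlike the Psme2 probe set with 1 symbol (0.22 and -0.04). A probe set shared by Psmd1 and Armc9 was near or below background on every array, at 4.47 and 4.90 in KO and 4.14 and 4.80 in WT.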
